A study of Mus musculus with 36 samples.

Results

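The unfolded protein response and the integrated stress response were followed through 36 mouse genes in the neural fraction of oral tumour stroma. The endoplasmic reticulum arm held 22 of them: 14 folding genes, 4 sensors and factors, and 4 genes of degradation. The ATF4 arm held 14: 7 stress factors and 7 genes of amino acid and redox metabolism. The genes were chosen from knowledge of both pathways and with earlier results of these data known. Each was read from 1 probe set, the brightest on average over the 36 arrays. All 36 were found among the 17098 genes with a probe set of their own, and all 36 passed the filter that left out the dimmest 25% of genes.

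Human oral carcinoma cells were grown orthotopically in NOD-SCIDγ (NSG) mice, which lack mature lymphocytes but keep myeloid cells, and RNA of the mouse neural fraction was hybridised to Affymetrix arrays. In the first VDH15 experiment, tumours with a non-targeting shRNA (PLKO) grew in mice on a palmitic acid-rich diet, an oleic acid-rich diet or a control diet, with 4 arrays in each group. SCC25 and a further VDH15 experiment, called the second, each had shCD36 and non-targeting tumours on the palmitate diet and on the control diet, with 3 arrays in each group. This made 36 arrays in 11 groups. VDH15 and SCC25 are human oral carcinoma cell lines, and every tumour carried an shRNA. The shRNA acted in the human tumour cells, while the arrays were meant to read the mouse stroma. CD36 is a membrane protein that takes up fatty acids. Age, sex and time on the diet are not given in the sources used here. The labels call each group 1 biological replicate and its arrays technical replicates, so experiments served as replicates. Palmitate and control diet were paired in 3 experiments in non-targeting tumours and in 2 in shCD36 tumours, both shRNAs were paired in 2, and the oleate group, seen in 1 experiment, was assumed to vary like the other groups.

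Palmitate is a saturated fatty acid known to induce this stress in cultured cells. Unfolded proteins in the endoplasmic reticulum release the chaperone BiP (Hspa5) from 3 sensors, IRE1 (Ern1), PERK (Eif2ak3) and ATF6. IRE1 splices Xbp1 mRNA, and spliced XBP1 and cleaved ATF6 switch on chaperones and degradation genes. PERK phosphorylates eIF2α, as other kinases do during amino acid shortage or other stress, and translation of Atf4 then goes up. ATF4 acts on genes of amino acid supply, on the factors CHOP (Ddit3) and Trib3, and on Ppp1r15a, which takes the phosphate off eIF2α again. Much of this control acts on splicing, cleavage and translation, which these arrays did not measure.

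Short promoter elements are known to carry each response: the endoplasmic reticulum stress element (ERSE) binds ATF6 and XBP1 with the factor NF-Y, and ATF4 binds composite sites shared with C/EBP proteins. RefSeq promoter windows (GRCm38.p6) reach from 250 bases before to 50 bases after a gene's start and were found for 33 of the 36 genes, with none for Manf, Hyou1 and Atf6. The ERSE was searched on both strands as CCAAT, 9 bases of any kind and CCACG. It stood in 8 of 19 promoters of the endoplasmic reticulum arm (42.1%), in 7 of 12 of the folding genes (58.3%) and in 0 of 16 of the ATF4 arm, against 39 of all 32851 promoters (0.119%). The matches are shown because most folding genes with a window held one. Each is printed in the direction of the element with 10 bases on either side, with the searched letters in capitals.
Hspa5 (chr2:34772015-34772053, plus strand): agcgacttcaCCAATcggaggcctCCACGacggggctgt
Calr (chr8:84847065-84847103, plus strand): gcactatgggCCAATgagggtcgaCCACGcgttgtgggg
Hsp90b1, distal (chr10:86705628-86705666, minus strand): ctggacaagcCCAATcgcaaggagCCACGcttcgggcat
Hsp90b1, proximal (chr10:86705523-86705561, plus strand): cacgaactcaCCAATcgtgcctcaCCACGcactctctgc
Canx (chr11:50325790-50325828, minus strand): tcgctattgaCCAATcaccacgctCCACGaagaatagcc
Pdia6 (chr12:17266481-17266519, plus strand): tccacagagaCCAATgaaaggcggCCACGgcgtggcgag
Dnajc3 (chr14:118937817-118937855, plus strand): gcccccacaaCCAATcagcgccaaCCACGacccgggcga
Creld2 (chr15:88819510-88819548, minus strand): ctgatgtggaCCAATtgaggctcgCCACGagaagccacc
Syvn1 (chr19:6046522-6046560, plus strand): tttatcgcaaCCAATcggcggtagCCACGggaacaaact

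A second form of the element, ATTGG, any base and CCACG, was found in 2 of 19 promoters of the endoplasmic reticulum arm (10.5%), those of Herpud1 and Dnajb11, against 12 of all 32851 promoters (0.0365%). The ATF4-type element, TGATGCAA or TGATGAAA on either strand, stood in 5 of 16 promoters of the ATF4 arm (31.2%) and in 1 of 19 of the endoplasmic reticulum arm, against 624 of all 32851 (1.9%). The promoter of Herpud1 held both kinds of element, and no match shared a base with another. These matches are letters in a window and do not show that a factor binds there. The match in Dnajb11 is left out because it lies past the gene's start, and the others are printed in the same way.
Herpud1, second form of ERSE (chr8:94386367-94386397, plus strand): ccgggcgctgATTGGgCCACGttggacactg
Herpud1, ATF4-type (chr8:94386307-94386334, minus strand): gggtgcgggcTGATGCAAcccgccgtgg
Atf3 (chr1:191183426-191183453, plus strand): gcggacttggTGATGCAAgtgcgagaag
Chac1 (chr2:119351039-119351066, minus strand): ctggcaggagTGATGCAAcggcagggaa
Slc7a11, distal (chr3:50443662-50443689, minus strand): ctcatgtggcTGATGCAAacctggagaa
Slc7a11, proximal (chr3:50443643-50443670, plus strand): ggctgcatgaTGATGCAAattctccagg
Asns (chr6:7693215-7693242, minus strand): cccagccacaTGATGAAActtcccgcac
Nupr1 (chr7:126625563-126625590, plus strand): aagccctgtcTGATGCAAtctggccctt

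All values below are log2 RMA intensities of the deposited table, in which array medians ran from 5.98 to 6.04. With terms for diet and shRNA, the labelled hybridisation batch, scan batch and cell line had coefficients of 0 within rounding in 100% of genes, and in 0% when these terms were left out, so the deposited values had been adjusted for these factors. The labels give each experiment 1 hybridisation batch of its own. Differences are therefore read within an experiment or from the fit with an experiment term. On the first principal component (44.5% of the variance), palmitate arrays 1 and 2 of the first VDH15 experiment and non-targeting palmitate array 1 of the second stood apart from the other arrays. Of 7 Schwann cell and glial markers with a probe set, Sox10, Mbp, Ngfr and Erbb3 passed the filter and S100b, Gfap and Foxd3 did not, and of 8 neuronal markers Tubb3, Uchl1 and Stmn2 passed. Markers of keratinocytes (7 of 8), fibroblasts (6 of 8), endothelium (7 of 7) and myeloid cells (6 of 8) also passed. Their median log2 levels were 8.86, 10.32, 9.70 and 7.23 in that order. Passing alone does not show that a cell type was present. Of 8 skeletal muscle markers only 2 failed, at a median of 5.51, near the cut of 5.19, and of 8 gland markers 5 failed. Fibroblast and endothelial medians lay well above that cut, so the arrays read RNA of cell types other than neural ones. The tumour cells were human, and whether their RNA added to the signal of keratinocyte markers or other genes was not tested.

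In non-targeting tumours, the palmitate diet went with small positive differences in chaperone genes and with mixed differences in the ATF4 arm, and no member passed the test. Of all 12823 genes tested, 887 did (6.92%; limma on the 11 group averages, Benjamini-Hochberg adjusted p under 0.05), 468 of them higher and 419 lower. Against that background, 0 of 22 genes of the endoplasmic reticulum arm and 0 of 14 genes of the ATF4 arm were called. At an unadjusted p under 0.05 there were 7 of 36 members, against 3431 of all genes (26.8%). The number of genes called was 224 without the first VDH15 experiment and 0 without SCC25 or without the second VDH15 experiment. A fit over all 36 arrays with the group as a random block called 10 of 36 members, among 3052 genes: Pdia6, Manf, Hsp90b1, Dnajc3, Herpud1, Sel1l and Nupr1 above 0, and Asns, Phgdh and Ppp1r15a below 0. Because that fit counts arrays that the labels call technical replicates, it is given as an alternative only. With the group averages, a p-value rests on the scatter of the 11 averages left after condition and experiment, moderated over all genes. The median log2 fold change was 0.06 in the endoplasmic reticulum arm, with 17 of 22 above 0, and -0.13 in the ATF4 arm, with 5 of 14 above 0, against -0.03 over all genes.

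The folding genes with the smallest p in non-targeting tumours were the protein disulfide isomerase Pdia6, the secreted survival factor Manf, the HSP90 paralogue of the endoplasmic reticulum Hsp90b1 and the co-chaperone Dnajc3. In palmitate tumours of the first VDH15 experiment, Pdia6 had log2 levels of 10.14, 10.07, 9.59 and 9.59, against 9.39, 9.49, 9.52 and 9.43 in control tumours. In the SCC25 experiment it had 9.86, 9.72 and 9.73 in palmitate tumours, against 9.56, 9.52 and 9.44 in control tumours. The second VDH15 experiment gave 9.72, 9.65 and 9.75 in palmitate tumours, against 9.66, 9.70 and 9.54 in control tumours. The palmitate arrays thus lay above all control arrays in 2 of 3 experiments, and in the third 2 of 3 palmitate arrays did and 1 lay among the controls. The log2 fold change was 0.24 ± 0.08 (SE, 3 experiments, adjusted p = 0.113). Manf gave 0.25 ± 0.08 (adjusted p = 0.118), Hsp90b1 0.23 ± 0.09 (adjusted p = 0.153) and Dnajc3 0.18 ± 0.07 (adjusted p = 0.181). Pdia6 had a second probe set, at a mean log2 level of 6.11. It differed by 0.58, -0.00 and -0.04 in the first VDH15 experiment, SCC25 and the second VDH15 experiment. The one used differed by 0.39, 0.26 and 0.08. The second probe set of Hsp90b1 differed by 0.50, 0.21 and 0.15 in that order. For Dnajc3 the one used differed by 0.30, 0.05 and 0.18, and the others by 0.21 to 0.77, 0.12 to 0.40 and -0.31 to 0.21. The other 9 folding genes besides Hspa5 had log2 fold changes between -0.07 (Hyou1) and 0.13 (Calr, a lectin chaperone).

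BiP itself, the sentinel chaperone of this response, differed little. In palmitate tumours of the first VDH15 experiment, Hspa5 had log2 levels of 11.003, 10.94, 10.74 and 10.65, against 10.70, 10.52, 10.59 and 10.57 in control tumours. In the SCC25 experiment it had 10.46, 10.79 and 10.79 in palmitate tumours, against 10.89, 10.78 and 10.83 in control tumours. In the second VDH15 experiment it had 10.55, 10.69 and 10.78 in palmitate tumours, against 10.56, 10.80 and 10.66 in control tumours. The arrays overlapped in every experiment, and the fold change was 0.03 ± 0.09 with a 95% interval of -0.19 to 0.25 (adjusted p = 0.884). The second probe set of Hspa5 gave differences of 0.15, 0.06 and 0.08 in the first VDH15 experiment, in SCC25 and in the second VDH15 experiment, against 0.24, -0.15 and -0.00 for the probe set used.

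Among the degradation genes, Herpud1, which helps to build the retrotranslocation complex, had the largest log2 fold change of the arm, 0.32 ± 0.13 (adjusted p = 0.184). It rested on the first VDH15 experiment, where palmitate arrays had log2 levels of 10.07, 9.95, 9.36 and 9.57 and control arrays 8.95, 9.10, 8.97 and 9.05. The differences in the SCC25 and second VDH15 experiments were 0.15 and 0.08. Sel1l, the adaptor of the same ligase complex, differed by 0.37, 0.00 and 0.23 in the first VDH15 experiment, in SCC25 and in the second VDH15 experiment. Its other probe sets differed by 0.30 to 0.51, -0.20 to 0.07 and -0.01 to 0.10 in that order. The ligase gene Syvn1 differed by 0.12, -0.18 and -0.21, and the mannosidase-like Edem1 by 0.06, -0.07 and -0.20.

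The sensors and factors of the endoplasmic reticulum arm gave differences of both signs. Xbp1, the factor activated by IRE1, had log2 levels of 9.71, 9.57, 9.38 and 9.32 in palmitate tumours of the first VDH15 experiment, against 9.08, 9.16, 8.99 and 8.95 in control tumours. In the second VDH15 experiment it had 8.63, 9.03 and 9.20 in non-targeting palmitate tumours, against 9.46, 9.48 and 9.21 in non-targeting control tumours. All palmitate arrays were thus above the controls in one experiment and below them in the other, with a difference of 0.07 and overlapping arrays in SCC25. All 4 probe sets of Xbp1 gave these opposite signs in both VDH15 experiments, with differences of 0.32 to 0.45 in the first and -0.60 to -0.31 in the second. The log2 fold change over the experiments was 0.03 ± 0.18 (adjusted p = 0.939). The 3 other probe sets and the one used do not tell spliced from unspliced Xbp1 mRNA. The sensor genes Ern1, Eif2ak3 and Atf6 gave log2 fold changes of 0.11, 0.12 and -0.17. Probe sets disagreed for Ern1, Eif2ak3 and Atf6. For Ern1, the probe set used differed by 0.23, 0.08 and 0.01 in the first VDH15 experiment, SCC25 and the second VDH15 experiment. The next brightest differed by 0.72, 0.06 and 0.53 in that order. The others differed by 0.15, -0.07 and -0.02, by 0.14, 0.09 and 0.14, and by 0.18, -0.20 and -0.05. For Atf6, the probe set used differed by -0.34, 0.00 and -0.17 in the first VDH15 experiment, in SCC25 and in the second VDH15 experiment, against 0.11, 0.03 and 0.03 for the other one. For Eif2ak3, the one used differed by -0.13, 0.25 and 0.26 in that order, and the 2 others by -0.09, -0.23 and -0.05 and by 0.02, -0.18 and -0.38.

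**Figure D1:**
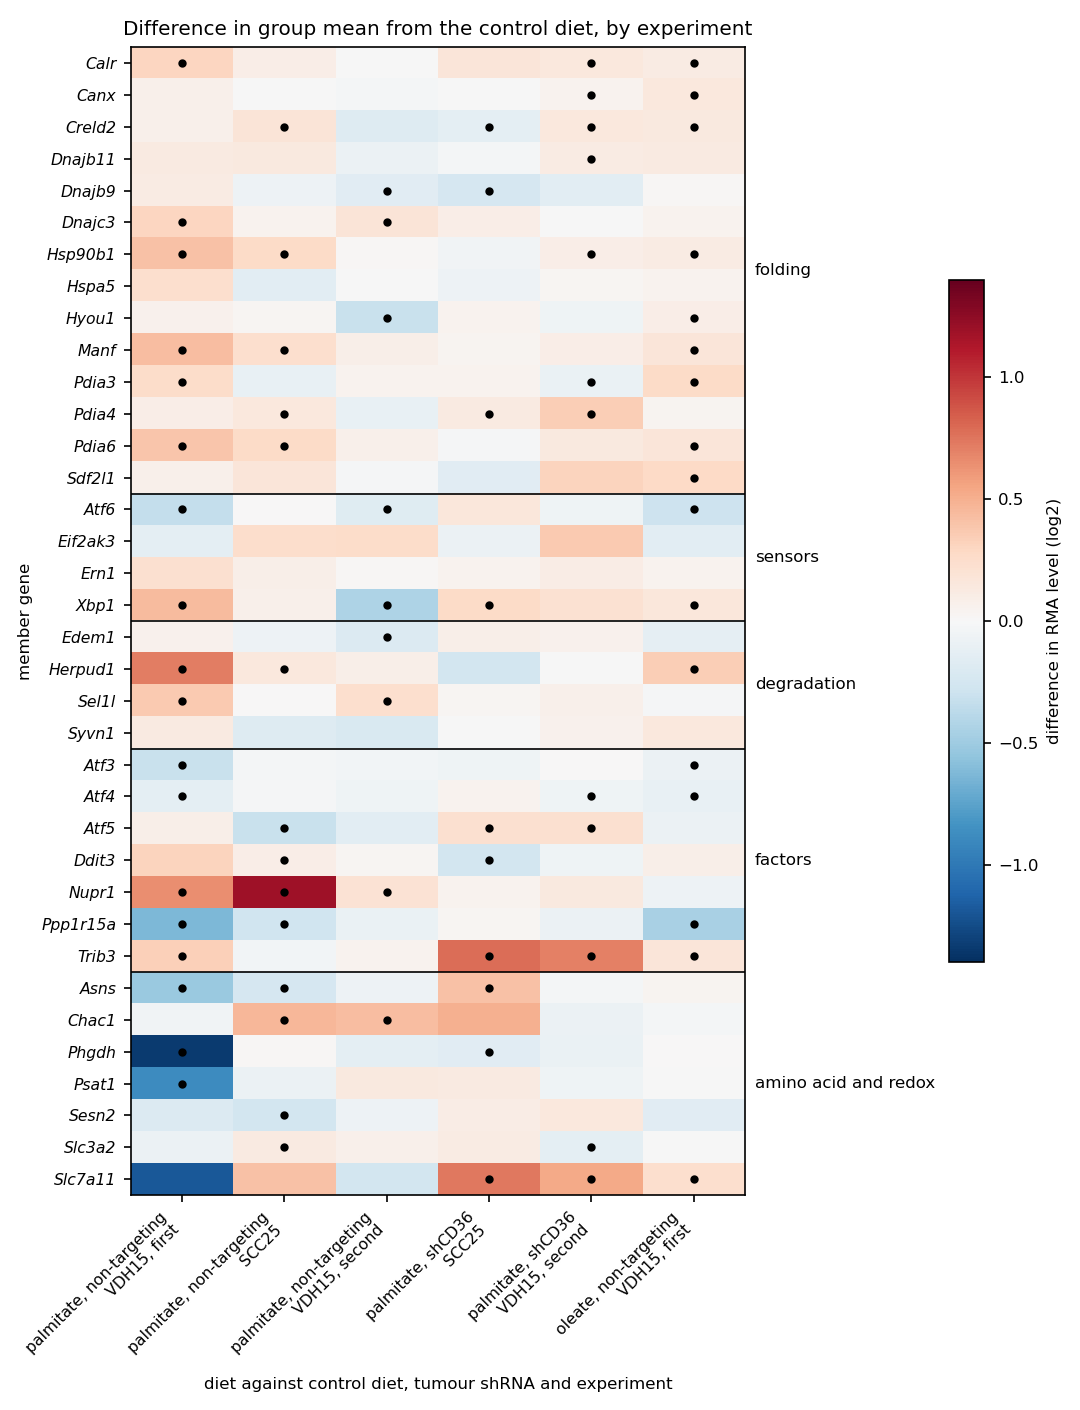
Difference in group mean (log2 RMA level) between the palmitate or oleate diet and the control diet for the 36 genes (rows, by role) in each experiment (columns). A dot marks genes whose arrays did not overlap between both diets. Nupr1 is the one gene with a dot in all 3 columns of non-targeting palmitate tumours, and Trib3 has dots in both shCD36 columns.

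The folding genes differed in their pattern by experiment. Pdia3, counted among them, was read from its only probe set at a mean log2 level of 6.31, the lowest of the 14. In the first VDH15 experiment, 14 of 14 folding genes had a higher mean on palmitate than on control diet, with a median difference of 0.18, and 6 of 14 had palmitate arrays all above the control arrays, against 17.2% of all genes above and 23.1% below. In SCC25, 10 of 14 were higher, with a median of 0.11, and 5 of 14 had arrays all above, against 15.4% above and 19.7% below among all genes. In the second VDH15 experiment 5 of 14 were higher, with a median of -0.01, and 1 of 14 had arrays all above and 2 all below, against 14.9% and 17.1% of all genes. Hyou1, a large BiP co-chaperone, was among the 2 below, at -0.31, and the other was the BiP co-chaperone Dnajb9, at -0.16. Over all 3 experiments together, 5.72% of all genes had palmitate arrays above control arrays each time and 5.12% below each time. Of the 36 members, 1 was in the first group, Nupr1, and 0 were in the second.

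Nupr1, a small chromatin protein induced by many stresses, was the ATF4-arm member with the smallest p in non-targeting tumours. In the first VDH15 experiment it had log2 levels of 12.11, 12.19, 12.10 and 12.00 on palmitate, against 11.58, 11.57, 11.26 and 11.37 on control diet. In SCC25 it had 12.27, 12.19 and 12.00 on palmitate, against 11.005, 10.89 and 11.01 on control diet. Levels in the second VDH15 experiment were 12.29, 12.03 and 11.93 on palmitate, against 11.86, 11.92 and 11.87 on control diet. No palmitate array overlapped a control array, but the size ran from 0.20 to 1.19, and the log2 fold change of 0.68 ± 0.25 (1.60-fold) did not pass the test (adjusted p = 0.146). A second probe set of Nupr1 gave 0.79, 1.03 and 0.23 in the first VDH15 experiment, in SCC25 and in the second VDH15 experiment.

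Other stress factors of the ATF4 arm gave log2 fold changes of both signs. Ddit3, which encodes CHOP, had log2 levels of 9.60, 9.47, 9.31 and 9.37 on palmitate in the first VDH15 experiment, against 8.93, 9.39, 9.19 and 9.001 on control diet. In SCC25 it had 9.30, 9.25 and 9.29 on palmitate, against 9.25, 9.09 and 9.21 on control diet, and in the second VDH15 experiment 9.48, 9.23 and 9.31 on palmitate, against 9.30, 9.36 and 9.30 on control diet. Its log2 fold change was 0.14 ± 0.09 with an interval of -0.07 to 0.36 (adjusted p = 0.362). Atf4 gave -0.07 ± 0.06 with an interval of -0.22 to 0.08 (adjusted p = 0.522). Ppp1r15a, the phosphatase subunit that ends the response, was at 10.52, 10.34, 10.98 and 10.92 on palmitate in the first VDH15 experiment, against 11.21, 11.44, 11.31 and 11.33 on control diet. It differed by -0.28 in SCC25 and -0.09 in the second VDH15 experiment, with a log2 fold change of -0.33 ± 0.15 (adjusted p = 0.211). Sesn2, a leucine sensor and antioxidant factor, gave -0.17 ± 0.07 (adjusted p = 0.166). Atf3, Atf5 and Trib3 gave log2 fold changes of -0.13, -0.13 and 0.12.

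**Figure D2:**
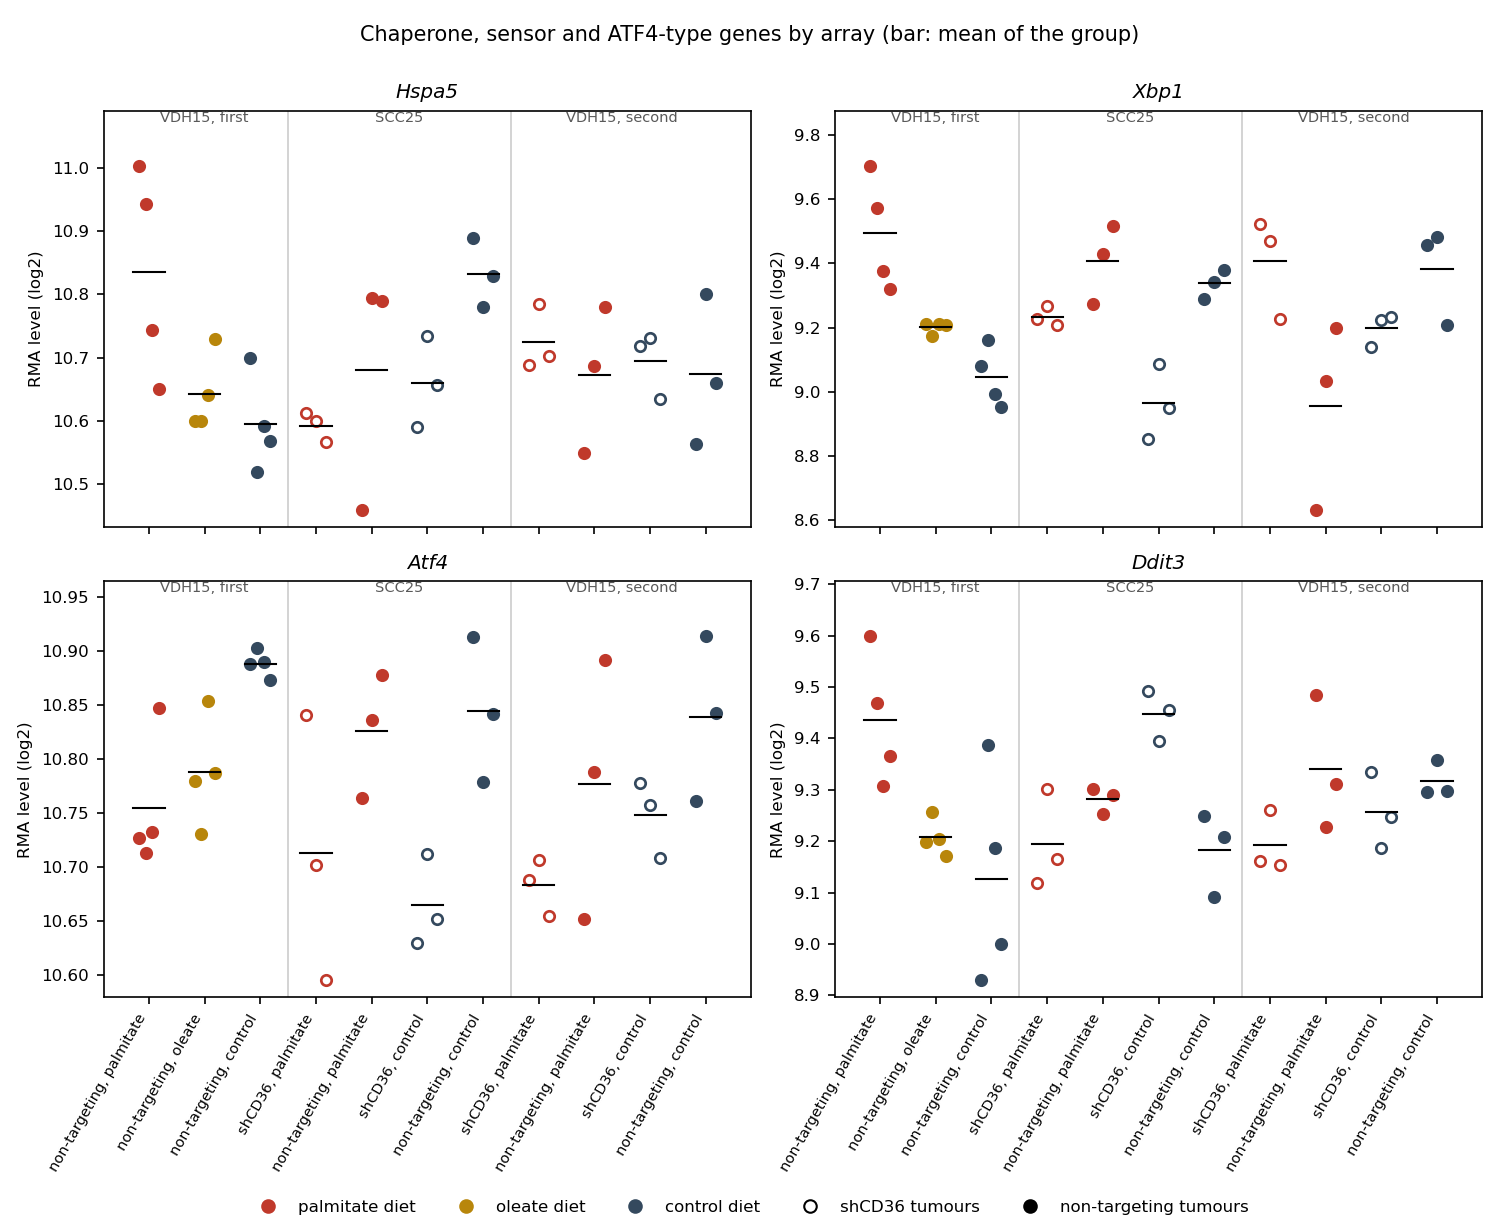
Log2 RMA level of Hspa5, Xbp1, Atf4 and Ddit3 on each array (points) with the group mean (bar), by diet (colour) and tumour shRNA (open for shCD36), in 11 groups. Group means of Hspa5 lie between 10.59 and 10.83 and those of Atf4 between 10.66 and 10.89, and Xbp1 is higher on palmitate than on control diet in the first VDH15 experiment and lower in the non-targeting tumours of the second.

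In the first VDH15 experiment the amino acid and redox genes held the largest differences of either arm. Phgdh, the first enzyme of serine synthesis, had log2 levels of 7.25, 7.41, 8.49 and 8.51 on palmitate in the first VDH15 experiment, against 9.06, 9.21, 9.41 and 9.34 on control diet. Psat1, the next enzyme of that pathway, had 9.15, 9.48, 10.01 and 9.96 on palmitate, against 10.55, 10.43, 10.61 and 10.52 on control diet. Asns, asparagine synthetase, had 8.37, 8.497, 8.82 and 8.89 on palmitate, against 9.11, 9.09, 9.26 and 9.17 on control diet. For these 3 genes every palmitate array lay below every control array, and arrays 1 and 2 lay lowest. Slc7a11, the cystine importer, had 4.75, 4.85, 6.94 and 6.61 on palmitate, against 7.15, 6.82, 6.97 and 6.96 on control diet. Arrays 1 and 2 of the palmitate group were far below the controls there, array 4 was just below them and array 3 lay among them.

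Differences of Phgdh, Psat1, Asns and Slc7a11 were smaller in size in the other 2 experiments. Asns differed by -0.23 in SCC25, where every palmitate array lay below every control array, and by -0.07 in the second VDH15 experiment, against -0.51 in the first. Phgdh differed by 0.02 in SCC25 and -0.14 in the second VDH15 experiment, against -1.34 in the first. Psat1 differed by -0.08 and 0.13, against -0.88, and Slc7a11 by 0.41 and -0.25, against -1.19. Over the 3 experiments the log2 fold change of Phgdh was -0.49 ± 0.24 (adjusted p = 0.255), and without the first VDH15 experiment it was -0.06. The 2 scan batches of the first VDH15 experiment each held 2 palmitate and 2 control arrays, and the difference of Phgdh was -1.36 in one and -1.33 in the other. The deposited values had been adjusted for scan batch, and the low palmitate arrays 1 and 2 were in different batches. Similar values in both batches are therefore no check on how these arrays differed from arrays 3 and 4. The second probe set of Phgdh gave -0.57 in the first VDH15 experiment, a smaller difference of the same sign. Chac1, a glutathione-degrading enzyme, had log2 levels of 7.88, 7.73, 6.33 and 6.70 in the same 4 palmitate arrays, against 7.31, 7.36, 7.05 and 7.13 in the controls, so arrays 1 and 2 lay above and arrays 3 and 4 below all controls. Its difference was -0.05 there, but 0.47 in SCC25 and 0.43 in the second VDH15 experiment, larger than in the first. The remaining member, Slc3a2, the heavy chain that pairs with Slc7a11, differed by -0.08, 0.12 and 0.07 in the first VDH15 experiment, in SCC25 and in the second VDH15 experiment.

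**Figure D3:**
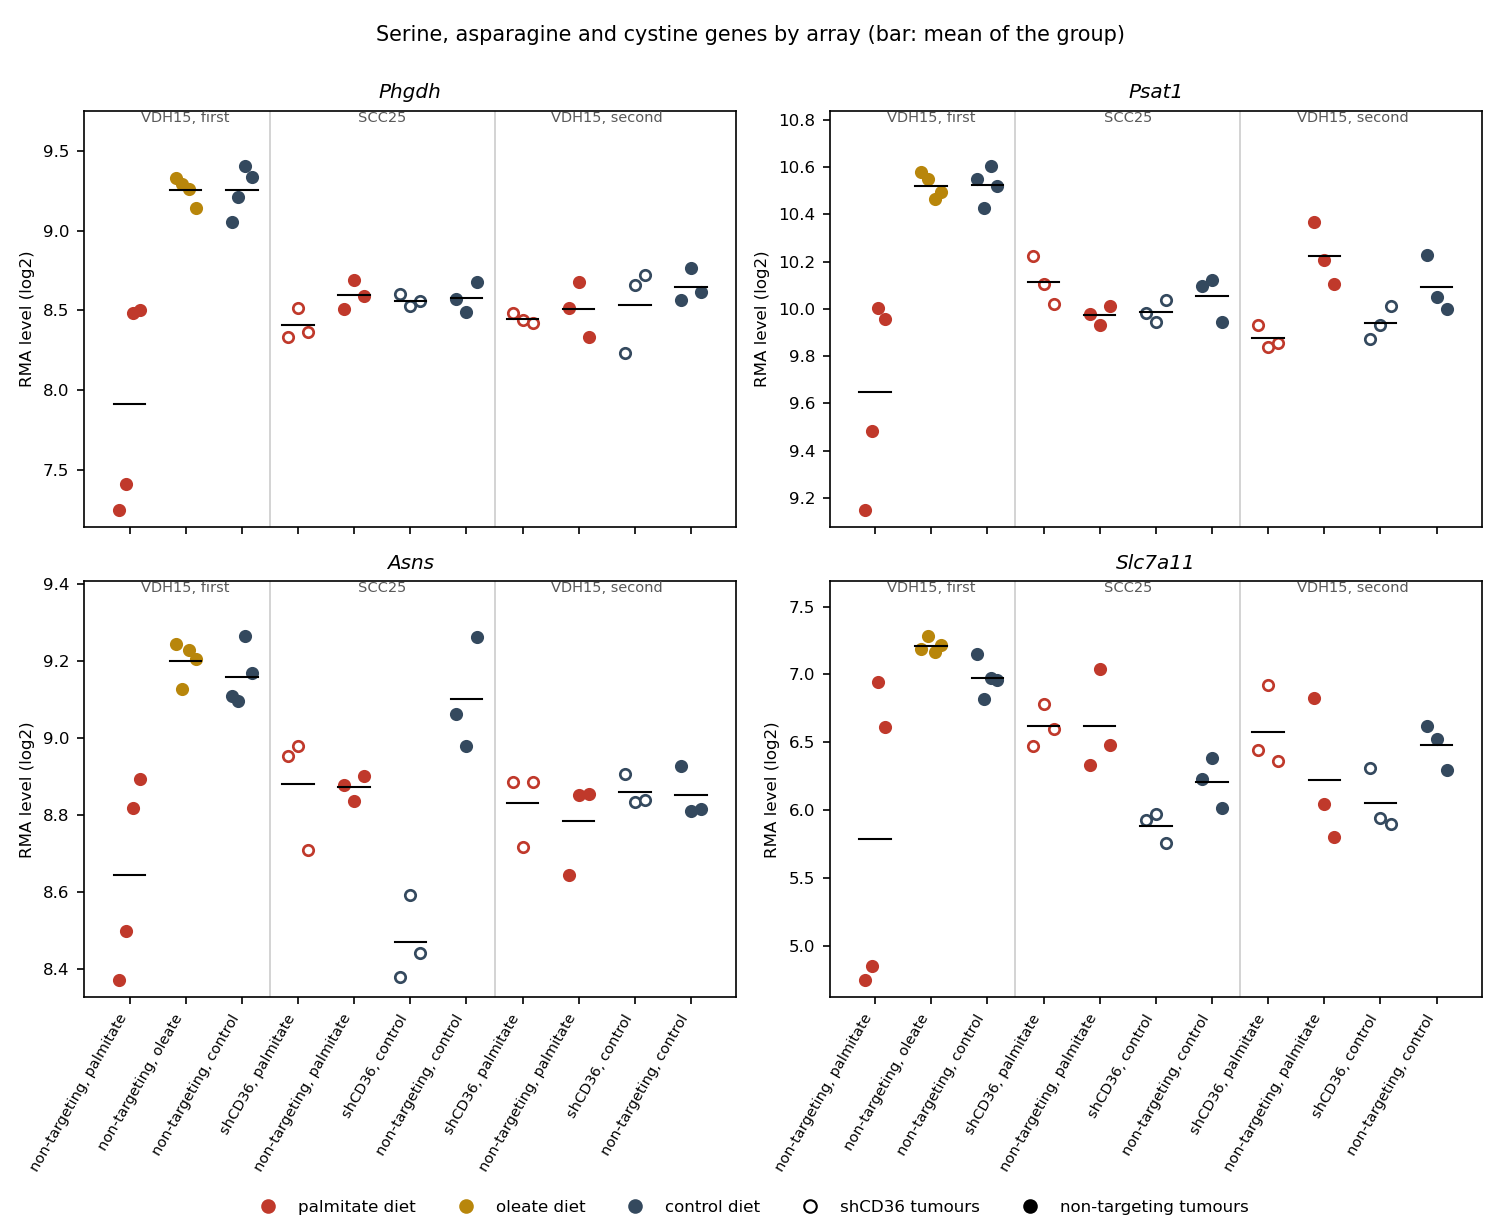
Log2 RMA level of Phgdh, Psat1, Asns and Slc7a11 on each array (points) with the group mean (bar), by diet (colour) and tumour shRNA (open for shCD36), in 11 groups. The low palmitate arrays of Phgdh, Psat1 and Asns belong to the first VDH15 experiment, and the Slc7a11 arrays of that group span 4.75 to 6.94.

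The split within the palmitate group of the first VDH15 experiment ran through both arms and through several lists of cell type markers. The mean over the 14 folding genes was 10.07, 10.04, 9.75 and 9.75 on palmitate arrays 1 to 4, against a control group mean of 9.69. The mean over the 7 amino acid and redox genes was 8.17, 8.21, 8.63 and 8.66 on the palmitate arrays, against 9.02 in the control group. On the same palmitate arrays the endothelial markers averaged 10.47, 10.49, 9.81 and 9.78, the keratinocyte markers 8.51, 8.49, 9.09 and 8.93, and the Schwann cell and glial markers 5.80, 5.93, 6.26 and 6.35. The fibroblast markers averaged 9.97, 9.89, 9.43 and 9.55 there, and the myeloid markers 7.52, 7.54, 7.09 and 7.54. Arrays 1 and 2 were thus higher in folding genes, endothelial and fibroblast markers and lower in amino acid genes, keratinocyte and glial markers than arrays 3 and 4, whereas the myeloid markers did not follow that split.

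Cell type markers also differed with the palmitate diet over all 10 arrays a side in non-targeting tumours. The mean of 7 endothelial markers ran from 9.78 to 10.50 over the palmitate arrays and from 8.11 to 9.36 over the control arrays, and that of 8 fibroblast markers from 9.43 to 10.33 on palmitate and from 8.34 to 9.22 on control diet. The mean of 8 myeloid markers ran from 6.56 to 7.78 on palmitate and from 5.71 to 6.496 on control diet, and that of 8 keratinocyte markers from 8.05 to 9.09 on palmitate and from 9.16 to 9.55 on control diet. None of these 4 ranges overlapped between both diets. Schwann cell and glial markers ran from 5.80 to 6.35 on palmitate and from 6.24 to 6.52 on control diet. In such bulk samples fewer cells of a type and less RNA per cell cannot be told apart, and the part of cell composition in the members' differences was not tested.

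In shCD36 tumours, Trib3 had the smallest p of the members on the palmitate diet. Trib3, a pseudokinase induced by ATF4 and CHOP, had log2 levels of 7.47, 7.66 and 7.27 on palmitate in SCC25 shCD36 tumours, against 6.44, 6.97 and 6.65 on control diet. The second VDH15 experiment gave 7.59, 7.53 and 7.62 on palmitate, against 6.76, 7.02 and 6.83 on control diet. All 6 palmitate arrays lay above all control arrays of their experiment, with differences of 0.79 and 0.71. The log2 fold change was 0.75 ± 0.13 (1.68-fold, 95% interval 0.44 to 1.06). It had the 5th smallest p of all genes, 0.000849, but 0 of 12823 genes passed the adjusted threshold in this comparison (0%, with 2 members and 282 genes at an unadjusted p under 0.05), and its adjusted p was 0.9998. The fit over all 36 arrays with the group as a random block called 7 genes, Trib3 among them (adjusted p = 0.00548). In non-targeting tumours Trib3 differed by 0.33, -0.04 and 0.05 in the first VDH15 experiment, in SCC25 and in the second VDH15 experiment. In shCD36 tumours the myeloid marker mean ran from 6.52 to 7.05 on palmitate and from 6.09 to 6.52 on control diet, and the fibroblast mean from 8.58 to 9.33 on palmitate and from 9.23 to 9.62 on control diet. The keratinocyte mean ran from 9.15 to 9.47 on palmitate and from 9.14 to 9.56 on control diet. Endothelial markers were apart in opposite directions. Their mean ran in SCC25 from 9.20 to 9.61 on palmitate and from 8.95 to 9.16 on control diet. In the second VDH15 experiment it ran from 8.45 to 8.66 on palmitate and from 8.88 to 9.09 on control diet. The part of these cell types in the level of Trib3 was not tested.

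The difference of the palmitate effect between both shRNAs was tested directly. For Trib3 it was 0.63 ± 0.17 (shCD36 minus non-targeting, adjusted p = 0.188), and 0 of 12823 genes passed the adjusted threshold (0%, with 3 members and 2011 genes at an unadjusted p under 0.05). A fit over all 36 arrays with the group as a random block gave 0.62 for the same difference (adjusted p = 0.0135) and called 1 member, Trib3, and 1052 genes. The next members were Sesn2, at 0.29 ± 0.11 (adjusted p = 0.280), Atf5, at 0.35 ± 0.13 (adjusted p = 0.294), and Slc7a11, at 0.97 ± 0.41 (adjusted p = 0.324). These estimates also use the non-targeting groups of the first VDH15 experiment, which held no shCD36 tumours. When each experiment was left out in turn, Trib3 ran from 0.52 to 0.74, Atf5 from 0.26 to 0.45 and Slc7a11 from 0.55 to 1.25. In the endoplasmic reticulum arm the smallest p belonged to Herpud1, at -0.45 ± 0.21 (adjusted p = 0.358). Its range was -0.69 to -0.25 when each experiment was left out in turn. The probe set of Herpud1 used differed between palmitate and control diet by -0.26 and -0.01 in shCD36 tumours of SCC25 and of the second VDH15 experiment, whereas its second probe set differed by 0.12 and 0.28 there. In non-targeting tumours that second probe set differed by 0.68, 0.16 and 0.00 in the 3 experiments, so the sign in shCD36 tumours depended on the probe set. Pdia4 followed, at 0.19 ± 0.13, with a range of 0.01 to 0.35 when each experiment was left out in turn, then Atf6, at 0.22 ± 0.15, and Hsp90b1, at -0.21 ± 0.14. Ddit3 gave -0.30 ± 0.14 (adjusted p = 0.364). Hspa5, Xbp1 and Atf4 gave -0.05, 0.21 and 0.06, and Xbp1 ran from 0.01 to 0.42 when each experiment was left out in turn.

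Other members of the shCD36 tumours differed less than Trib3 on palmitate. In both shCD36 experiments, palmitate arrays lay above control arrays for 4 of 36 members, Trib3, Slc7a11, Atf5 and Pdia4, against 2.14% of all genes, and below for 0 members, against 1.34%. Slc7a11 had 6.47, 6.78 and 6.60 on palmitate in SCC25 shCD36 tumours, against 5.92, 5.97 and 5.76 on control diet. Levels in the second VDH15 experiment were 6.45, 6.92 and 6.36 on palmitate, against 6.31, 5.94 and 5.90 on control diet. Its log2 fold change was 0.63 ± 0.32 with an interval of -0.14 to 1.397, and its second probe set differed by 0.63 and 0.44. Atf5 gave 0.22 ± 0.10 and the isomerase Pdia4 0.24 ± 0.10, with adjusted p-values of 0.9998 each. Calr gave 0.15 ± 0.10, Sesn2 0.12 ± 0.08, Dnajb9 -0.19 ± 0.11 and Xbp1 0.24 ± 0.21. Hspa5, Atf4 and Ddit3 gave -0.02, -0.01 and -0.16. The median log2 fold change was 0.05 in the endoplasmic reticulum arm, with 17 of 22 above 0, and 0.06 in the ATF4 arm, with 8 of 14 above 0, against 0.01 over all genes.

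Over both shRNAs together, 0 of 36 members and 0 of 12823 genes were called on palmitate (0%, with 3 members and 1588 genes at an unadjusted p under 0.05). The fit over all arrays called 2 members, Trib3 and Nupr1. Trib3 gave 0.43 ± 0.08 (1.35-fold, adjusted p = 0.263). Manf gave 0.16 ± 0.07, Pdia6 0.15 ± 0.06, Calr 0.14 ± 0.06 and Pdia4 0.14 ± 0.06, with adjusted p-values from 0.401 to 0.437. Nupr1 gave 0.39 ± 0.20, Chac1 0.25 ± 0.15 and Phgdh -0.31 ± 0.19.

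**Figure D4:**
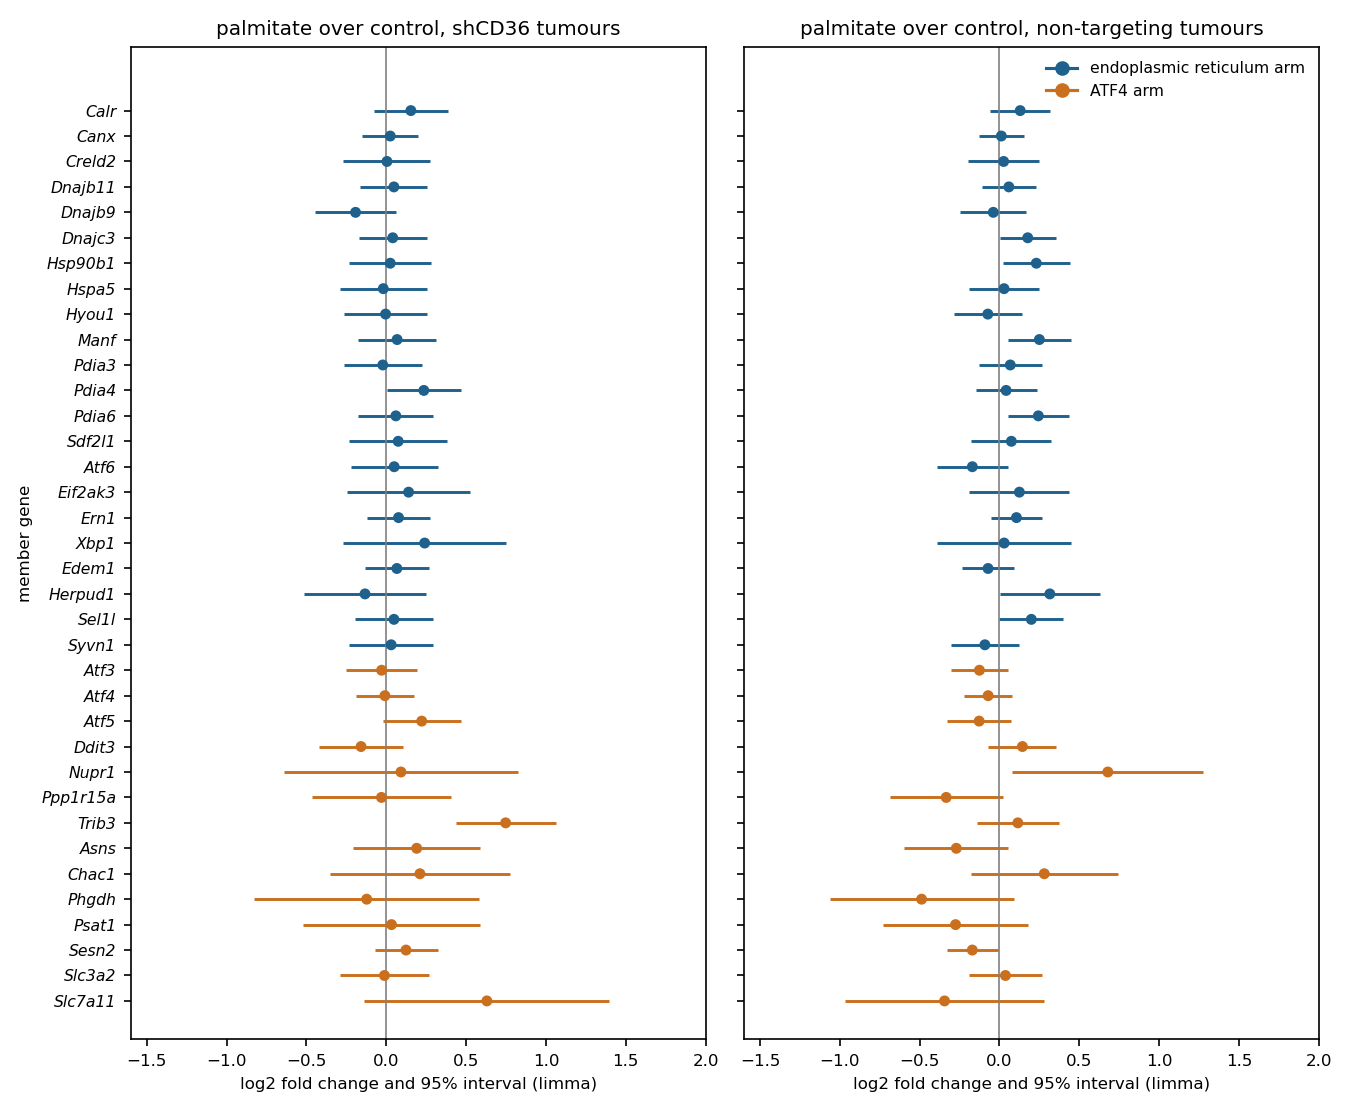
Log2 fold change of palmitate over control diet with its 95% interval (limma on group averages) for the 36 genes, in shCD36 tumours (left) and non-targeting tumours (right). Blue marks the endoplasmic reticulum arm and orange the ATF4 arm. Trib3 lies at 0.75 on the left and at 0.12 on the right, and Nupr1 at 0.68 on the right.

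The effect of the tumour shRNA was next read on each diet. On the palmitate diet 0 of 36 members were called, against 48 of all genes (0.374%), and 3 members had an unadjusted p under 0.05, among 2359 genes. The number of genes called was 115 without the first VDH15 experiment, 0 without SCC25 or the second, and 6 without the 3 arrays that stood apart. The fit over all arrays called 2 members, Herpud1 and Trib3. Herpud1 had log2 levels of 8.98, 9.05 and 8.82 in shCD36 tumours of SCC25, against 9.48, 9.52 and 9.41 in non-targeting tumours. In the second VDH15 experiment it had 9.17, 9.20 and 8.99 in shCD36 tumours, against 9.41, 9.39 and 9.39 in non-targeting tumours. The shCD36 arrays were below in both experiments, and the log2 fold change was -0.50 ± 0.15 (0.707-fold, adjusted p = 0.167). This estimate also uses the non-targeting palmitate group of the first VDH15 experiment, and it was -0.40 without that experiment. The second probe set of Herpud1 differed by -0.29 and -0.23 between shCD36 and non-targeting tumours on palmitate, and by -0.25 and -0.50 on control diet, against -0.12 and -0.19 on control diet for the one used. Trib3 gave 0.37 ± 0.13 (adjusted p = 0.190), with shCD36 arrays above non-targeting arrays in both experiments, and Sesn2 gave 0.23 ± 0.08 (adjusted p = 0.200). On palmitate, markers of 3 cell types were apart as well. The endothelial mean ran from 8.45 to 9.61 in shCD36 and from 9.78 to 10.50 in non-targeting tumours, the fibroblast mean from 8.58 to 9.33 in shCD36 and from 9.43 to 10.33 in non-targeting tumours, and the keratinocyte mean from 9.15 to 9.47 in shCD36 and from 8.05 to 9.09 in non-targeting tumours. Their part in these differences was not tested.

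Herpud1 and Trib3 were the only members whose arrays were apart in the same direction in both experiments on palmitate, 1 of 36 below and 1 of 36 above, against 6.19% and 7.19% of all genes. Dnajc3, Pdia4 and Hsp90b1 gave log2 fold changes of -0.16, 0.17 and -0.18, and Slc3a2 and Ddit3 gave -0.20 and -0.16. Hspa5, Xbp1 and Atf4 gave -0.07, 0.04 and -0.09. The median log2 fold change was -0.04 in the endoplasmic reticulum arm and 0.02 in the ATF4 arm, against 0.03 over all genes.

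On the control diet, 12 of 14 genes of the ATF4 arm had a log2 fold change below 0 in shCD36 tumours, with a median of -0.19, against -0.01 over all genes, but 0 of 36 members and 0 of 12823 genes were called (0%, with 1 member and 435 genes at an unadjusted p under 0.05; the fit over all arrays called 0 members). Fibroblast markers on control diet ran from 9.23 to 9.62 in shCD36 and from 8.34 to 9.22 in non-targeting tumours, without overlap, and their part was not tested. Ppp1r15a had log2 levels of 10.67, 10.77 and 10.80 in shCD36 tumours of SCC25, against 10.95, 11.01 and 11.12 in non-targeting tumours. In the second VDH15 experiment it had 10.63, 10.43 and 10.63 in shCD36 tumours, against 11.11, 11.31 and 11.09 in non-targeting tumours. The groups did not overlap in either experiment, and the log2 fold change was -0.52 ± 0.17 (adjusted p = 0.991). Atf5 gave -0.23 ± 0.10, Asns -0.37 ± 0.16, Trib3 -0.26 ± 0.13 and Atf4 -0.15 ± 0.07. For Asns the difference was -0.63 in SCC25 and 0.01 in the second VDH15 experiment, and for Trib3 it was -0.50 in SCC25 and -0.12 in the second, with a fitted value of -0.41 to -0.05 when each experiment was left out in turn.

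Arrays of shCD36 tumours on control diet lay below those of non-targeting tumours in both experiments for 2 of 36 members, Ppp1r15a and Edem1, against 2.08% of all genes, and above for 0, against 1.39%. Nupr1 differed in opposite directions. It had 11.82, 12.01 and 12.16 in shCD36 tumours of SCC25, against 11.005, 10.89 and 11.01 in non-targeting tumours, and 11.40, 11.50 and 11.68 in shCD36 tumours of the second VDH15 experiment, against 11.86, 11.92 and 11.87 in non-targeting tumours. In the endoplasmic reticulum arm the median was -0.04, and Atf6, Dnajb9, Edem1 and Ern1 gave -0.18, 0.17, -0.11 and 0.10. Hspa5, Xbp1 and Ddit3 gave -0.02, -0.18 and 0.14.

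**Figure D5:**
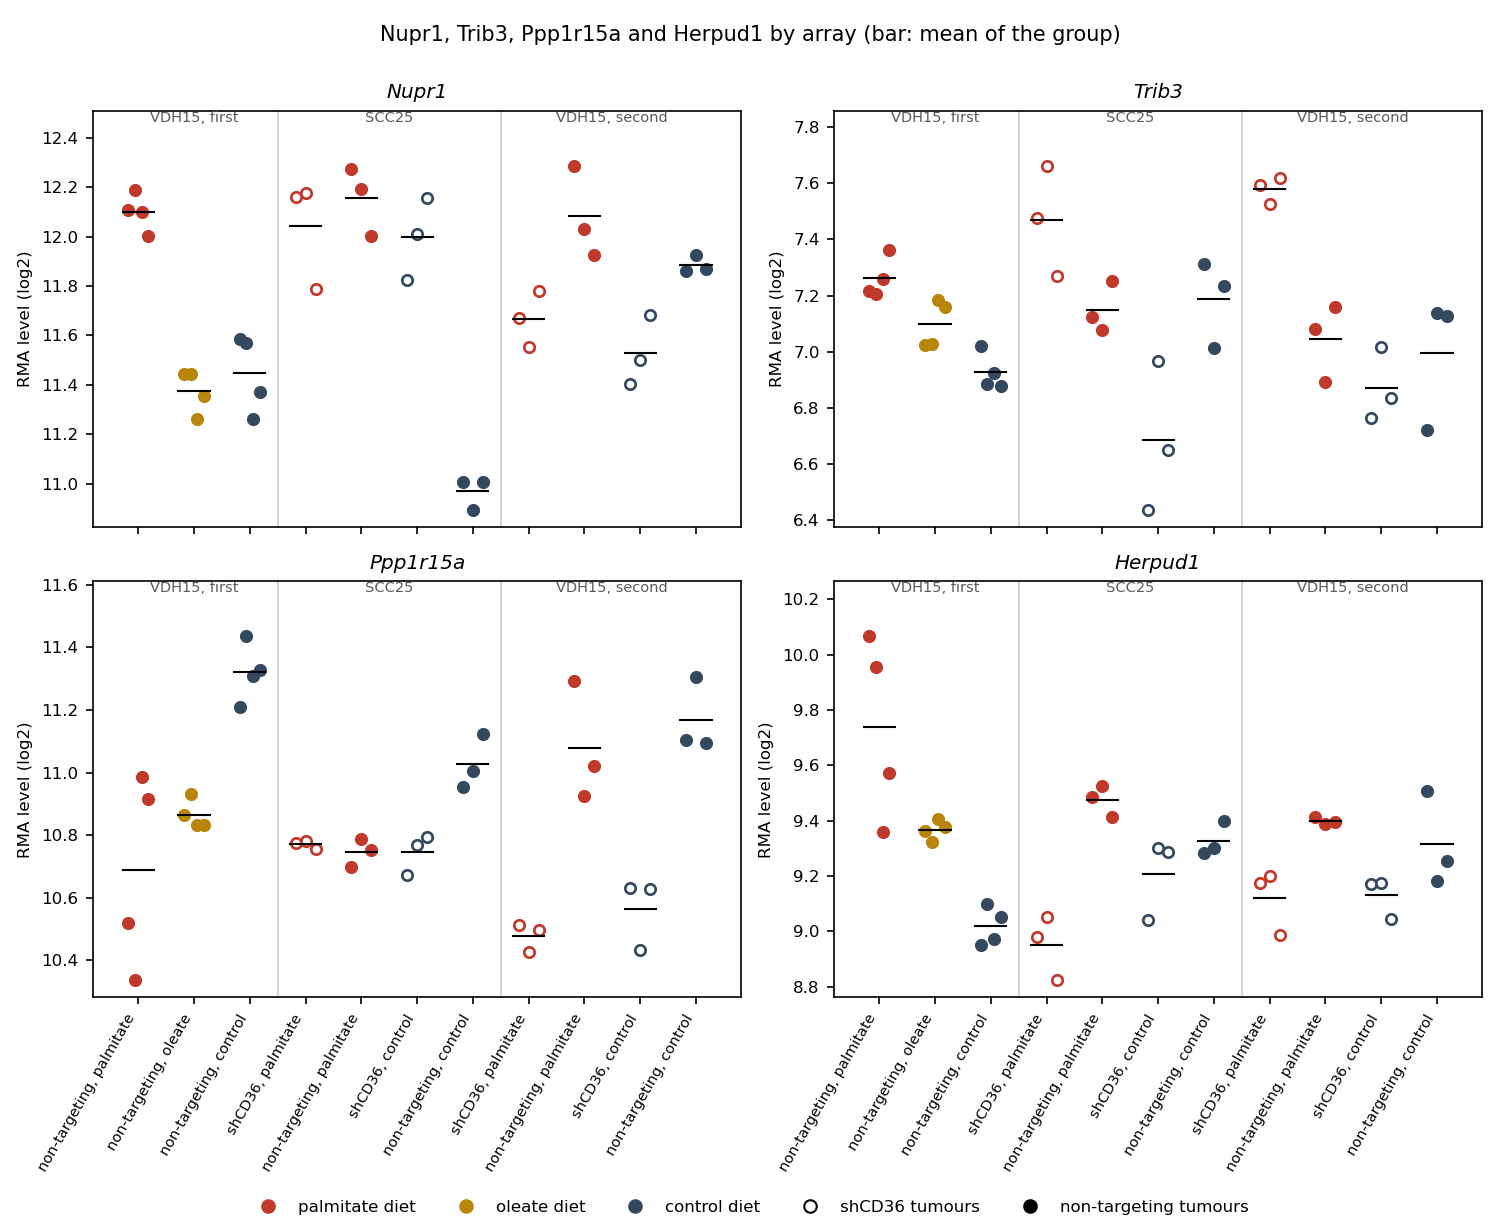
Log2 RMA level of Nupr1, Trib3, Ppp1r15a and Herpud1 on each array (points) with the group mean (bar), by diet (colour) and tumour shRNA (open for shCD36), in 11 groups. The shCD36 palmitate arrays of Trib3 sit between 7.27 and 7.66, above the shCD36 control arrays, which sit between 6.44 and 7.02.

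The oleate diet was seen in the first VDH15 experiment only, with the same control arrays as the palmitate diet. There, 14 of 14 folding genes had a higher mean on oleate than on control diet, with a median difference of 0.12, and 9 of 14 had oleate arrays all above the control arrays, against 6.54% of all genes above and 9.06% below. Pdia6 had log2 levels of 9.63, 9.59, 9.60 and 9.67 on oleate, against the control arrays given above. Herpud1 had 9.36, 9.32, 9.41 and 9.38 on oleate, all above its control arrays. Endothelial markers were apart in the same arrays, from 9.47 to 9.85 on oleate and from 8.53 to 9.18 on control diet, whereas fibroblast, myeloid, keratinocyte and glial marker means overlapped, and their part was not tested. In the fit over all experiments the control diet level also draws on the other experiments, and the median of the 14 folding genes was 0.05. By limma, 0 members and 0 genes were called (0%; 0 members and 225 genes at an unadjusted p under 0.05), and the fit over all arrays also called 0 of both. The smallest p in each arm belonged to Edem1, with a fitted value of -0.19 ± 0.11, Sdf2l1, at 0.28 ± 0.17, Slc7a11, at 0.66 ± 0.41, and Atf5, at -0.18 ± 0.13. Within the first VDH15 experiment these genes differed by -0.13, 0.28, 0.24 and -0.08 in that order. Atf6, Pdia3, Sesn2 and Ppp1r15a gave fitted values of -0.21, 0.17, -0.15 and -0.31, against -0.29, 0.27, -0.15 and -0.46 within the experiment. The fitted values of Hspa5, Xbp1, Atf4 and Ddit3 were -0.06, -0.05, -0.07 and -0.00. Within the experiment the same genes differed by 0.05, 0.15, -0.10 and 0.08, so 3 of these 4 signs turned, and the Xbp1 arrays on oleate all lay above those on control diet.

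Between the palmitate and oleate groups, the fitted differences of Slc7a11, Phgdh and Nupr1 were the largest in size among the members. Phgdh had log2 levels of 9.34, 9.29, 9.26 and 9.14 on oleate, above the palmitate arrays given above, and Slc7a11 had 7.19, 7.28, 7.16 and 7.21 on oleate. The log2 fold change of palmitate over oleate was -1.002 ± 0.41 for Slc7a11 (adjusted p = 0.400) and -0.92 ± 0.38 for Phgdh (adjusted p = 0.402). It was -0.39 and -0.53 without the 3 arrays that stood apart, and -1.42 and -1.345 within the first VDH15 experiment. Nupr1 gave 0.74 ± 0.40 in the fit and 0.72 within the experiment, with palmitate arrays all above the oleate arrays. Asns gave -0.43 ± 0.22 and Psat1 -0.57 ± 0.30. In the endoplasmic reticulum arm Sel1l gave 0.30 ± 0.13, Dnajc3 0.19 ± 0.12, Hsp90b1 0.20 ± 0.14 and Manf 0.18 ± 0.13, and Hspa5, Xbp1, Atf4 and Ddit3 gave 0.09, 0.08, -0.00 and 0.14. Fibroblast markers ran from 9.43 to 9.97 on palmitate and from 8.55 to 8.86 on oleate, and myeloid markers from 7.09 to 7.54 on palmitate and from 5.79 to 6.44 on oleate. Schwann cell and glial markers were lower on palmitate, from 5.80 to 6.35, against 6.38 to 6.45 on oleate. The endothelial and keratinocyte means overlapped, and the part of these cell types was not tested. Here 0 of 36 members were called, against 5 of all genes (0.039%), and 2 members, Slc7a11 and Phgdh, had an unadjusted p under 0.05, among 1592 genes. Leaving out SCC25, the second VDH15 experiment or the 3 arrays left 0 genes called, and the fit over all arrays called 1 member, Nupr1. For 4 of 22 genes of the endoplasmic reticulum arm and 3 of 14 of the ATF4 arm palmitate arrays lay all above oleate arrays, and for 0 and 5 all below, against 15.9% and 20.5% of all genes.

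Over the 11 groups, the spread of group means was wide in the 7 amino acid and redox genes. Their median range between the lowest and highest group mean was 0.88, whereas it was 0.35 in the 7 stress factors of the ATF4 arm and 0.34 in the endoplasmic reticulum arm, against 0.37 over all genes. Ranges of 1.42, 1.34 and 1.19 belonged to Slc7a11, Phgdh and Nupr1, whereas those of Hspa5, Atf4 and Ddit3 were 0.24, 0.22 and 0.32. Hspa5 was highest in palmitate tumours of the first VDH15 experiment, at 10.835 ± 0.17 (SD, 4 arrays), followed by SCC25 non-targeting control tumours, at 10.8325, and lowest at 10.59 in SCC25 shCD36 palmitate tumours and in control tumours of the first VDH15 experiment. Group means of Xbp1 ran from 8.95 to 9.49, those of Atf4 from 10.66 to 10.89 and those of Ddit3 from 9.13 to 9.45. The deposited values had been adjusted for batch and cell line, so these ranges do not measure differences between experiments.

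The groups without array values so far filled in the picture for BiP and CHOP. Hspa5 had log2 levels of 10.61, 10.60 and 10.57 in SCC25 shCD36 tumours on palmitate, against 10.59, 10.73 and 10.66 on control diet. In shCD36 tumours of the second VDH15 experiment it had 10.69, 10.78 and 10.70 on palmitate, against 10.72, 10.73 and 10.63 on control diet. On oleate it had 10.60, 10.60, 10.64 and 10.73, so its arrays overlapped those of the control diet in all 3 settings. Ddit3 had 9.12, 9.30 and 9.17 in SCC25 shCD36 tumours on palmitate, all below the 9.49, 9.39 and 9.45 on control diet. In shCD36 tumours of the second VDH15 experiment it had 9.16, 9.26 and 9.15 on palmitate, against 9.34, 9.19 and 9.25 on control diet, and on oleate it had 9.20, 9.26, 9.20 and 9.17, with overlap in both cases.

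Atf4 averaged 10.75 ± 0.06 on palmitate and 10.79 ± 0.05 on oleate in the first VDH15 experiment, against 10.89 ± 0.01 on control diet (SD, 4 arrays each). In shCD36 tumours it averaged 10.71 ± 0.12 on palmitate in SCC25, against 10.66 ± 0.04 on control diet, and 10.68 ± 0.03 on palmitate in the second VDH15 experiment, against 10.75 ± 0.04 on control diet (SD, 3 arrays each). In non-targeting tumours it averaged 10.83 ± 0.06 on palmitate in SCC25, against 10.84 ± 0.07 on control diet, and 10.78 ± 0.12 on palmitate in the second VDH15 experiment, against 10.84 ± 0.08 on control diet. In these values, adjusted for batch and cell line before deposit, the group means of Atf4 mRNA stayed within 0.22 of each other. Xbp1 averaged 9.23 ± 0.03 on palmitate in SCC25 shCD36 tumours, against 8.96 ± 0.12 on control diet, and 9.41 ± 0.16 on palmitate in shCD36 tumours of the second VDH15 experiment, against 9.20 ± 0.05 on control diet. In SCC25 non-targeting tumours it averaged 9.41 ± 0.12 on palmitate, against 9.34 ± 0.05 on control diet, and on oleate in the first VDH15 experiment 9.20 ± 0.02, against 9.05 ± 0.09 on control diet.

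Other genes of both pathways, listed apart from the members, were tested in the same fit. In non-targeting tumours on palmitate, 2 of 46 other endoplasmic reticulum genes were higher and 0 lower, and 3 of 32 other genes of the integrated stress response were called, against 6.92% of all genes. They were the disulfide reductase Dnajc10, at 0.33 ± 0.07 (adjusted p = 0.0423), and the membrane-bound factor Creb3l2, at 0.77 ± 0.17 (adjusted p = 0.0491). Of 32 other genes of the integrated stress response, the glutamine transporter Slc38a2 rose by 0.31 ± 0.07 (adjusted p = 0.0430) and the repressor Jdp2 by 0.35 ± 0.08 (adjusted p = 0.0443), and the alanine transaminase Gpt2 fell by 0.51 ± 0.08 (adjusted p = 0.0261). The medians were 0.08 and -0.05, against -0.03 over all genes. None of these calls stood without SCC25 or without the second VDH15 experiment, when 0 genes were called. In the other 7 comparisons 0 of these other genes were called.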

How the data were processed

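The values were the deposited log2 intensities of 36 Affymetrix arrays, made by the authors with RMA (affy), as the submitters' processing notes have it. cDNA was amplified before labelling, per the labels' protocols, and the step that adjusted for batch and cell line is not given in the sources used here. Of 45141 probe sets, those with 1 gene in the platform annotation gave 17098 genes, each read from its probe set with the highest mean. The 25% of genes with the lowest mean (under 5.19 log2) were left out, which left 12823. Arrays of a group were averaged, and the 11 averages were fitted with limma 3.58.1 (R 4.3.3) on condition and experiment, with 4 residual and 2.70 prior degrees of freedom. A gene was called at a Benjamini-Hochberg adjusted p under 0.05 over all 12823 genes. The script was tested on simulated data. Named per comparison were the called members, the 4 members of each arm with the smallest p, and Hspa5, Xbp1, Atf4 and Ddit3, whose values in every group are plotted. Further members were named after their values were seen. The members and lists were chosen with earlier results of these data known. Alternatives were arrays in place of averages, a replicate block, no experiment term, other filters and probe sets, and leaving out experiments or arrays. Protein sequences were not used here. The small number of experiments limits the precision, since the arrays of a group were averaged.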

Additional observations from a re-analysis of the deposited data

Results flagged for a closer look

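Of 108 groups of 4 arrays in the first VDH15 experiment, 4 held an array far from the others by Dixon's criterion, which chance alone meets in about 1 group in 20. These were the highest palmitate array of Atf4, at a log2 level of 10.8472, the highest control array of Calr, at 11.0696, the lowest control array of Syvn1, at 8.3069, and the lowest oleate array of Xbp1, at 9.1736.

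For 10 members, arrays did not overlap in either of 2 settings and the differences ran in opposite directions, which was 27.8% of the members, against 2876 of all 12823 genes (22.4%). The difference between the settings was not tested for these pairs. For palmitate over control diet in SCC25, Asns gave 0.4099 in shCD36 and -0.2298 in non-targeting tumours, Atf5 gave 0.2201 in shCD36 and -0.3135 in non-targeting tumours, and Ddit3 gave -0.2519 in shCD36 and 0.0982 in non-targeting tumours. Creld2, a secreted folding factor, gave -0.1421 in SCC25 shCD36 tumours, 0.1851 in SCC25 non-targeting tumours and 0.1504 in shCD36 tumours of the second VDH15 experiment. Xbp1 gave 0.447 in the first and -0.4283 in the second VDH15 experiment with non-targeting tumours.

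For shCD36 over non-targeting tumours on palmitate, Xbp1 gave -0.1733 in SCC25 and 0.4535 in the second VDH15 experiment, and Psat1 gave 0.1402 in SCC25 and -0.3498 in the second VDH15 experiment. On control diet, Nupr1 gave 1.0282 in SCC25 and -0.356 in the second VDH15 experiment, and Manf gave 0.1133 in SCC25 and -0.1103 in the second VDH15 experiment. Within SCC25, Trib3 gave 0.3203 on palmitate and -0.5034 on control diet, and Pdia6 gave -0.1589 on palmitate and 0.1237 on control diet.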

How the results depend on the processing

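Over 94 fold changes of named members, 924 values were recomputed: 826 kept their sign and their side of the threshold, 67 were called in place of not called, and 31 changed sign. The count of 0 members called held in every comparison under the mean of all probe sets, without the filter, with only the groups compared and without any experiment or the 3 arrays that stood apart, where these could be run. With all arrays and the group as a random block, members called numbered 10 for palmitate in non-targeting tumours, 1 in shCD36 tumours, 2 over both shRNAs, 2 for shCD36 over non-targeting on palmitate, 1 for the difference between shRNAs and 1 for palmitate over oleate. Without the experiment term they numbered 5, 0, 1, 3, 1 and 0. The deposited values had already been adjusted for batch and cell line. A fit without that term counts degrees of freedom that the adjustment had used, so its p-values can be too small. Array numbers did not pair the samples: over 48 pairs of same-numbered arrays the correlation of deviations from the group means ran from -0.30 to 0.34, with a median of 0.008, and 8 were over 0.1. With the array number as a replicate block over all arrays, members called numbered 16, 2, 13, 7, 7 and 15 in these comparisons, 4 for shCD36 over non-targeting on control diet and 1 for oleate over control. Fits over arrays treat technical replicates as samples.

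With the mean of all probe sets, Xbp1 gave -0.013 in non-targeting tumours, Hspa5 0.0008 and Atf4 0.029 in shCD36 tumours, Atf4 0.009 for shCD36 over non-targeting on palmitate and Hspa5 0.049 for oleate over control. Without the 3 arrays, Hspa5 gave -0.0078 over both shRNAs, Xbp1 -0.0074 for shCD36 over non-targeting on palmitate, Xbp1 0.020 and Ddit3 0.020 for oleate over control, and Manf -0.0012 and Atf4 0.032 for palmitate over oleate. With the replicate block, Hspa5 gave 0.058 for the difference between shRNAs, and Hspa5 0.047, Xbp1 0.154 and Ddit3 0.082 for oleate over control, and with the random block Ddit3 gave 0.0025 there. The cause was not tested.

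Leaving out each experiment in turn turned the sign of 13 of the 94 fold changes, moved 36 others by over 1.5 times with the sign kept, and moved 45 by less. The ranges where a sign changed were these. In non-targeting tumours Hspa5 ran from -0.077 to 0.119 and Xbp1 from -0.180 to 0.258. In shCD36 tumours Hspa5 ran from -0.068 to 0.030 and Atf4 from -0.065 to 0.048. Over both shRNAs Hspa5 ran from -0.048 to 0.074 and Ddit3 from -0.049 to 0.051. For shCD36 over non-targeting, Slc3a2 ran from -0.374 to 0.0052 and Xbp1 from -0.268 to 0.235 on palmitate, and Hspa5 from -0.076 to 0.081 and Xbp1 from -0.281 to 0.034 on control diet. The difference between shRNAs for Hspa5 ran from -0.112 to 0.058, and for oleate over control Xbp1 ran from -0.065 to 0.060 and Ddit3 from 0.011 to 0.029.

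Counts over all genes moved more. In non-targeting tumours on palmitate, 887 genes became 34 with only the groups compared, 599 without the 3 arrays, 3052 and 5724 with the 2 blocks and 3001 without the experiment term. For shCD36 over non-targeting on palmitate, 48 became 0, 6, 1627, 3572 and 1722, and for palmitate over oleate 5 became 0, 581, 5439 and 869 under those of these settings that could be run. Both oleate comparisons need the first VDH15 experiment, so neither leaving it out nor using only the groups compared could be run for them. Where 0 genes were called on the group averages, the random block called 7 for palmitate in shCD36 tumours, 605 over both shRNAs, 35 for shCD36 over non-targeting on control diet and 1052 for the difference between shRNAs, and the replicate block 322, 3111, 361 and 2413, with 367 for oleate over control. Without the experiment term these 4 comparisons had 0, 236, 13 and 699 calls, and with only the groups compared 3, 0, 7 and 0. Each comparison rests on at most 3 experiments and the oleate group on 1, and detection above background was not analysed here.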
